A study of Mus musculus with 6 samples.

Results

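The mitochondrial ribosomal proteins were followed in the embryonic mouse eye as 76 genes whose symbols start with Mrpl or Mrps and a digit, 47 named for the large subunit and 29 for the small subunit. They came from 156 probe sets that the annotation of the Affymetrix mouse expression array gives 1 such symbol, out of 18194 genes with a probe set of 1 symbol, and each gene was read on its brightest probe set over the 6 arrays. RefSeq holds 78 protein-coding genes with such a symbol in the mouse. The 2 that are not among the 76, Mrpl30 and Mrpl53, share their probe sets with another symbol. The arrays compared 3 samples of Oa1-/- embryos with 3 samples of wild-type (WT) embryos at embryonic day 15.5, and a sample was the pooled posterior eye of 6 embryos of 1 dam, so a replicate is a litter. The labels give no other allele or agent and no strain background for either genotype, and they do not describe the extent of the deletion. Oa1, now named Gpr143, encodes a receptor of pigment cell organelles that is mutated in human X-linked ocular albinism.

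The mitochondrial ribosome makes the few proteins that the mitochondrial genome encodes, all of them core subunits of the respiratory chain and of ATP synthase. Its ribosomal RNAs are transcribed inside the organelle, while every ribosomal protein is encoded in the nucleus, made in the cytosol and imported. The small subunit binds and decodes the messenger, and the large subunit joins the amino acids and releases the chain into the inner membrane. Some of the proteins descend from bacterial ribosomal proteins and others were added during the evolution of mitochondria. The developing retina builds energy-demanding neurons beside a pigment epithelium, and both depend on these respiratory complexes.

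The symbols did not match the place in the ribosome for every member. Mrps18a and Mrps30 belong to the large subunit in the mammalian structure, and Mrps36 is a component of the 2-oxoglutarate dehydrogenase complex and not of the ribosome. By structure the members therefore held 49 large subunit and 26 small subunit proteins.

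The targeted gene matched the labels. Gpr143 had signals of 28.3, 39.1 and 6.02 in the Oa1-/- samples, against 250.05, 257 and 246 in the WT samples (log2 change -2.82, SE 0.34; limma, adjusted p = 0.318, exact permutation p = 0.1, the smallest that 3 against 3 allows). Tests were two-sided, and a log2(signal + 16) scale, which understates changes of dim probe sets, was used throughout. Oa1-/- replicate 1 and WT replicate 3 stood apart: in a principal component analysis of the arrays, the leading axis (46.0% of the variance) chiefly set Oa1-/- replicate 1 apart, and the next (18.7%) WT replicate 3. The 18S ribosomal RNA control (3′ probe set) gave 6348, 2618 and 2608 in Oa1-/- samples, against 1476, 1988 and 1988 in WT samples. The Y-linked genes Eif2s3y, Kdm5d and Uty were at 9.26, 13.5 and 14.4 on WT replicate 3. On each other array they were at 406, 377 and 189 or more. The part of this difference between the pools in the members' values was not tested. The tissue carried retinal genes such as Pax6 (10597 to 11541 in Oa1-/- and 10026 to 10063 in WT samples). It also carried lens genes, although the front of the eye had been removed, with summed signals of the lens list of 138856 to 151804 in Oa1-/- and 110691 to 156352 in WT samples. In such bulk samples, fewer cells of a type and less RNA per cell cannot be told apart.

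All 76 members were expressed well above the background in the posterior eye of both genotypes. Their mean signals lay between 458 and 5795, and the lowest value of any member on any array was 387, while the highest bacterial control reached 22.1 to 39.3 on the 6 arrays. All 76 also passed the filter on dim probe sets, a mean signal above the 40th percentile (66.0).

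No member passed the adjusted threshold, and most members leaned slightly upwards in Oa1-/- eyes. With limma, 0 of 76 passed an adjusted p of 0.05 (smallest adjusted p = 0.985), as did 0 of the 27029 probe sets tested, a background of 0%. At an unadjusted p below 0.05, 0 members were higher and 1 was lower (Mrpl37), against 1.68% of the 12884 genes tested that were higher and 1.98% that were lower (3.66% in either direction). The log2 change was above 0 for 59 of 76 members, or 77.6%, beside 50.8% of all genes tested and 48.6% of the 7412 genes within the members' range of mean signal. The median log2 change of the members was 0.064, beside 0.00264 over all genes tested. The changes ran from -0.30 for Mrpl37 to 0.26 for Mrpl40. The standard errors ran from 0.074 to 0.15 with a median of 0.10, so the lean of a typical member was smaller than its own error. The 95% confidence interval lay within a 1.5-fold change for 75 of 76 members.

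**Figure D1:**
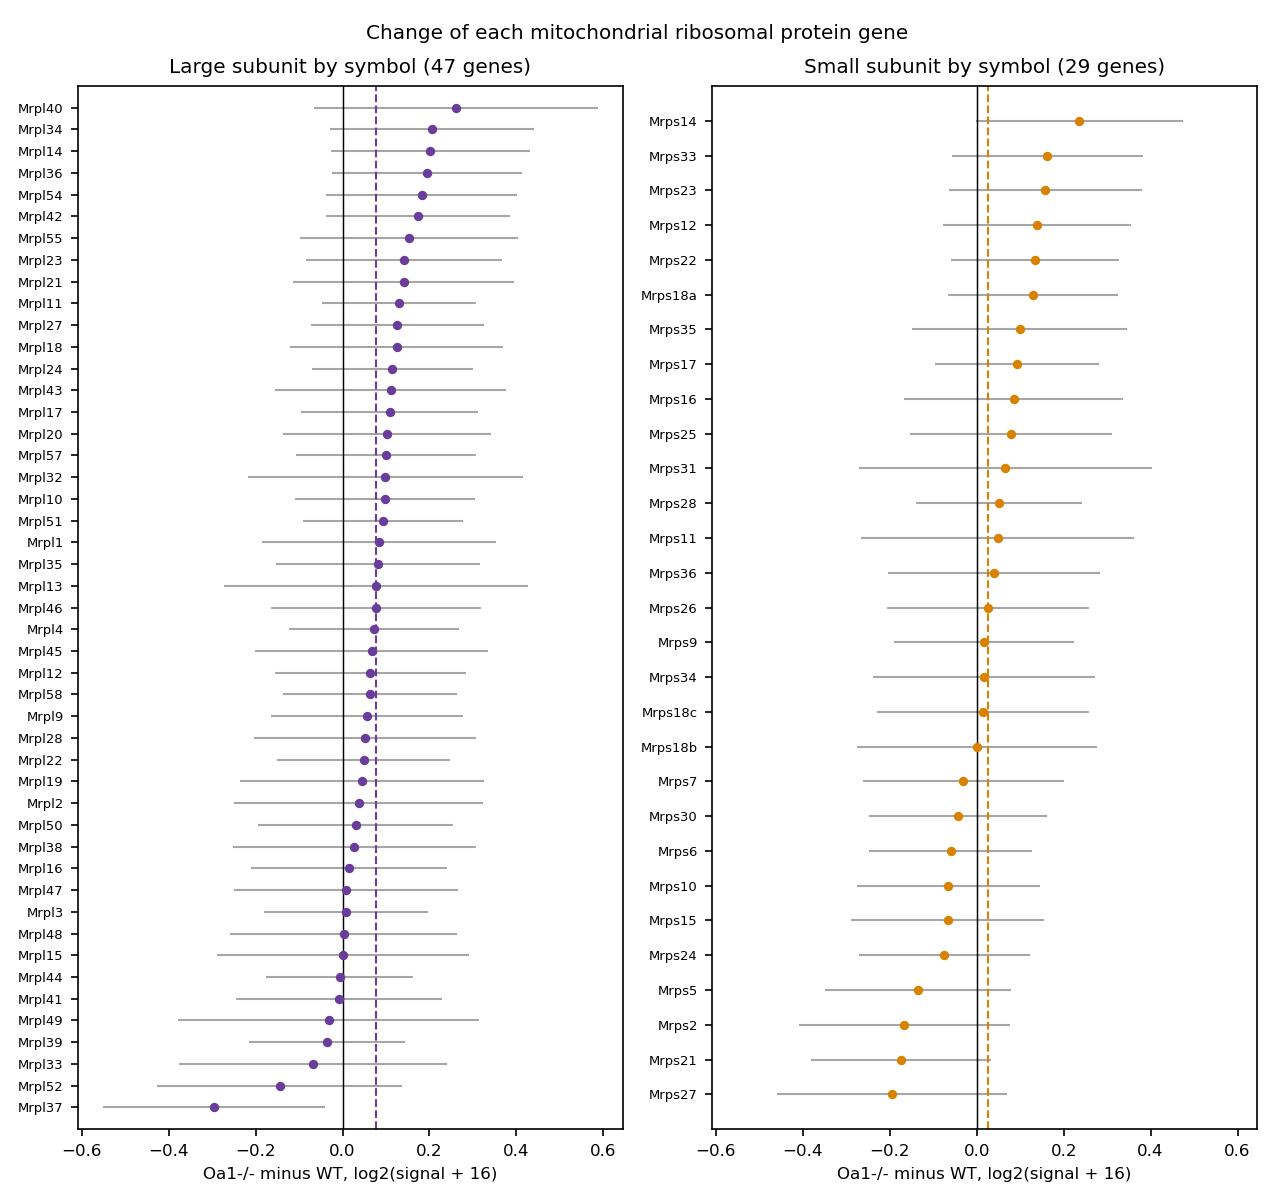
Log2 change of each mitochondrial ribosomal protein gene, Oa1-/- minus WT, on the log2(signal + 16) scale (horizontal axis), for the large subunit (left panel, purple) and the small subunit (right panel, orange) by symbol. Points are limma estimates from 3 arrays per genotype, bars their 95% confidence intervals, and dashed lines the subunit medians of 0.076 and 0.025. The interval of Mrpl37 lies wholly below 0.

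The upward lean was present on the array of Oa1-/- replicate 1 and not on the other Oa1-/- arrays. Each member's deviation from its own mean over the 6 arrays was taken, and the median deviation of the 76 members was 0.15, -0.018 and -0.043 on Oa1-/- replicates 1, 2 and 3. On WT replicates 1, 2 and 3 it was -0.019, -0.072 and 0.0022. The median on Oa1-/- replicate 1 was thus above those of the other 5 arrays, and Oa1-/- replicates 2 and 3 lay inside the range of the WT arrays. Oa1-/- replicate 1 held the highest value of 48 members, against 2 on Oa1-/- replicate 2, 6 on Oa1-/- replicate 3, and 5, 1 and 14 on WT replicates 1, 2 and 3. Of all genes tested, 22.2% had their highest value on Oa1-/- replicate 1, and 25.7% of the genes in the members' range of signal. Without that array, 36 of 76 members had a log2 change above 0 (background 50.6%), and the members' median was -0.00815. The 18S control was also highest on that array, and its part in the members' values was not tested.

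**Figure D2:**
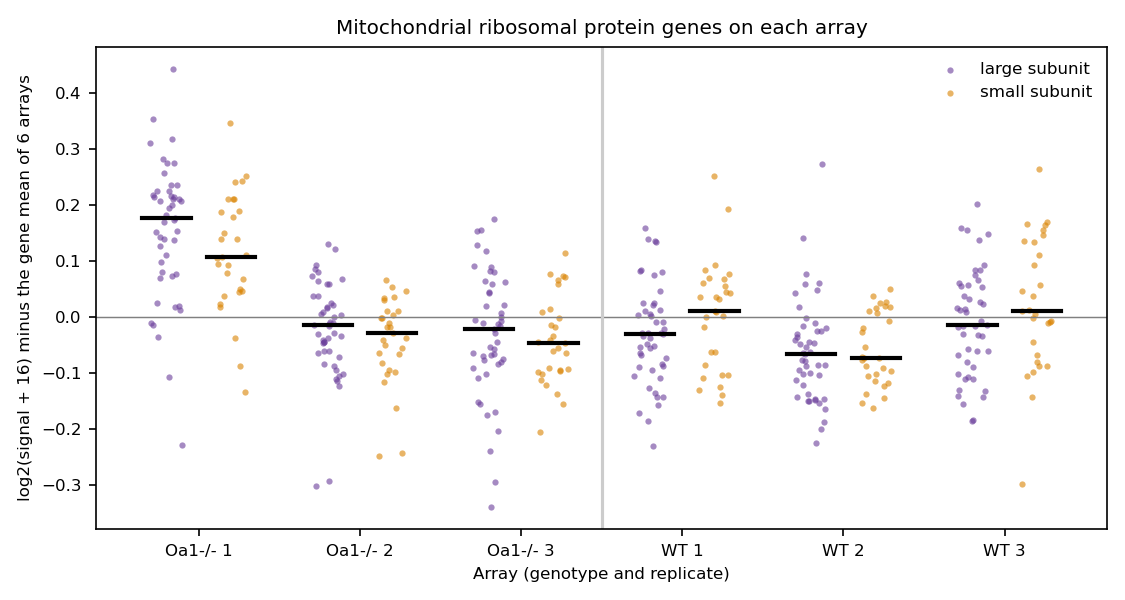
Deviation of each mitochondrial ribosomal protein gene from its mean over the 6 arrays, in log2(signal + 16) units (vertical axis), on each array (horizontal axis, Oa1-/- left of WT). Dots are genes, large subunit in purple and small subunit in orange, and black bars are medians. The medians on Oa1-/- replicate 1 are 0.18 and 0.11, and the other medians lie between -0.072 and 0.011.

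The large subunit genes leaned further upwards than the small subunit genes, and the difference between their medians stayed between 0.035 and 0.072 with each array left out in turn. The median log2 change was 0.076 over the 47 large subunit genes, of which 40 were above 0. It was 0.025 over the 29 small subunit genes, of which 19 were above 0. Assigned by structure, the medians were 0.076 and 0.021. The median deviation of the large subunit minus that of the small subunit was 0.070, 0.015 and 0.025 on Oa1-/- replicates 1, 2 and 3. The same difference was -0.040, 0.0071 and -0.025 on WT replicates 1, 2 and 3. The genotypes did not overlap in this difference, but the lowest Oa1-/- value and the highest WT value lay close together. Without Oa1-/- replicate 1 the large subunit median was 0.000376 and the small subunit median was -0.058, so both medians were lower while their difference was 0.058, beside 0.051 with all arrays. The difference is given as a description of these arrays, with no test.

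**Figure D3:**
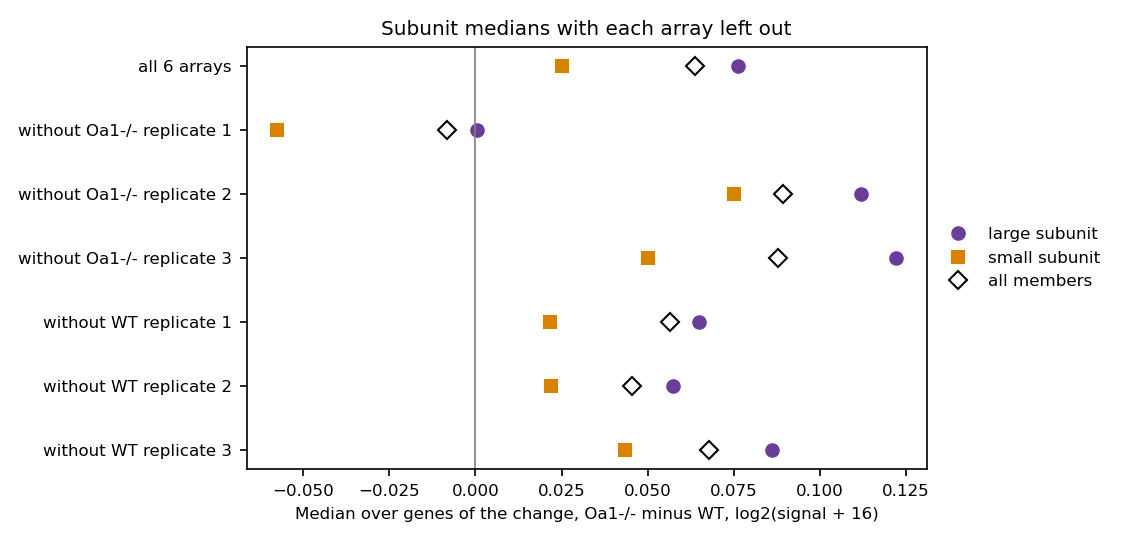
Median log2 change, Oa1-/- minus WT, in log2(signal + 16) units (horizontal axis), over the large subunit genes (purple circles), the small subunit genes (orange squares) and all members (open diamonds), with all 6 arrays and with each array left out in turn (vertical axis). The large subunit median is to the right of the small subunit median in each line, and all 3 medians are lowest without Oa1-/- replicate 1.

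Among the large subunit genes, Mrpl37 stood at the lower end and Mrpl40 at the upper end. Mrpl37, a protein of the large subunit with no bacterial counterpart, had signals of 867, 761 and 907 in the Oa1-/- samples, against 943, 1134 and 1047 in the WT samples. The genotypes did not overlap, with the highest Oa1-/- value below the lowest WT value. Its means were 845 ± 75.6 in Oa1-/- and 1041 ± 95.6 in WT samples (SD, n = 3 each), a log2 change of -0.30 (SE 0.11, 95% interval -0.55 to -0.041; limma, unadjusted p = 0.0280, adjusted p = 0.985). Without Oa1-/- replicate 1 the change was -0.32.

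Mrpl36, the counterpart of one of the smallest bacterial ribosomal proteins, had signals of 1075, 938 and 969.8 in the Oa1-/- samples, against 903, 857 and 838 in the WT samples (log2 change 0.19, SE 0.096; limma, unadjusted p = 0.0745). Mrpl14, a protein of bacterial descent on the face that meets the small subunit, had signals of 919, 819 and 893 in the Oa1-/- samples, against 817, 734 and 731 in the WT samples (log2 change 0.20, SE 0.10; limma, unadjusted p = 0.0771). In both genes every Oa1-/- value was above every WT value, for Mrpl14 by a margin of 819 to 817. Mrpl34, also of bacterial descent, had signals of 2659, 2522 and 2257 in the Oa1-/- samples, against 1962, 2091 and 2397 in the WT samples, and the genotypes overlapped (log2 change 0.21). Mrpl40, whose human counterpart lies in the region deleted in DiGeorge syndrome, had the highest estimate of all members at 0.26. Its signals were 1487, 1136 and 1009.55 in the Oa1-/- samples, against 1024, 930.3 and 1030.5 in the WT samples. The value of 1487 on Oa1-/- replicate 1 set most of that estimate, which was 0.11 without that array.

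The other large subunit genes with the smallest p in either direction overlapped between the genotypes. Mrpl54 averaged 1304 ± 96.3 in Oa1-/- and 1147 ± 73.7 in WT samples (SD, n = 3 each; log2 change 0.18). Mrpl42 averaged 3668 ± 381 in Oa1-/- and 3239.9 ± 121 in WT samples (SD, n = 3 each; log2 change 0.17). Below 0 after Mrpl37 came Mrpl52, at -0.14, or -0.22 without Oa1-/- replicate 1. The next probe set of Mrpl52 in brightness, 1415762_x_at, was at 0.068. The remaining lower genes were close to 0. Mrpl33, the counterpart of a zinc-ribbon protein in bacteria, was at -0.068, Mrpl39 at -0.035 and Mrpl49 at -0.032. Mrpl44, which carries a fold like that of ribonuclease III and is mutated in a human infantile cardiomyopathy, was at -0.00666, with means of 2246 ± 56.4 in Oa1-/- and 2257 ± 71.7 in WT samples (SD, n = 3 each). The interval of Mrpl44 was -0.18 to 0.16, which bounds a change at this precision.

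Among the small subunit genes, Mrps14 was the highest and 4 genes lay between -0.13 and -0.19. Mrps14, a protein of bacterial descent, had signals of 5800.04, 4730.2 and 4417 in the Oa1-/- samples, against 4242, 4121 and 4235 in the WT samples. The genotypes did not overlap, and Oa1-/- replicate 1 was far above the other 5 arrays. The log2 change was 0.24 (SE 0.10, 95% interval -0.00246 to 0.47; limma, unadjusted p = 0.0519) and 0.12 without that array. Mrps33 (0.16), Mrps23 (0.16) and Mrps22 (0.13), which have no bacterial counterpart, overlapped between the genotypes. The same held for Mrps12 (0.14), the counterpart of the bacterial protein in which streptomycin resistance mutations arise. Mrps33 and Mrps12 were at 0.078 and 0.068 without Oa1-/- replicate 1.

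Mrps21, of bacterial descent, had signals of 1262, 1279.7 and 1123 in the Oa1-/- samples, against 1368, 1331 and 1437 in the WT samples (log2 change -0.17, SE 0.090; limma, unadjusted p = 0.0889). Mrps27, an RNA-binding protein with pentatricopeptide repeats, had signals of 483, 496 and 507 in the Oa1-/- samples, against 545, 529 and 641 in the WT samples (log2 change -0.19, SE 0.12; limma, unadjusted p = 0.129). Each Oa1-/- value of these genes was below each WT value, and for Mrps27 the WT sample at 641 lay farthest from the Oa1-/- values. Mrps2, of bacterial descent and mutated in a human syndrome with hearing loss, had signals of 1578, 1242 and 1384 in the Oa1-/- samples, against 1551, 1497 and 1659 in the WT samples. Its log2 change was -0.17, or -0.25 without Oa1-/- replicate 1, and the genotypes overlapped through that array. Mrps24 and Mrps6, both of bacterial descent, were at -0.075 and -0.060.

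Over all members, 6 did not overlap between the genotypes and were higher in Oa1-/- samples, and 4 did not overlap and were lower. That is 7.89% and 5.26% of the members, beside 5.47% and 5.29% of all genes tested, so the members' shares were near the background. The higher genes were Mrpl11, Mrpl14, Mrpl27, Mrpl36, Mrps14 and Mrps17, and the lower genes were Mrpl37, Mrps5, Mrps21 and Mrps27. Mrpl11, a protein of the stalk base where translation factors dock, had signals of 2048, 1992 and 2053 in the Oa1-/- samples, against 1895, 1752 and 1921 in the WT samples. That was its brightest probe set, at a log2 change of 0.13. Its dimmer probe sets 1437131_x_at, 1437839_x_at and 1438080_at were at 0.014, -0.33 and -0.24, so the direction differed between probe sets. Mrpl27, which in bacteria reaches into the peptidyl transferase centre, had signals of 3121, 2668 and 2657 in the Oa1-/- samples, against 2633, 2507 and 2575 in the WT samples. Mrps17, of bacterial descent, had signals of 1845, 1844 and 1885 in the Oa1-/- samples, against 1615, 1831 and 1785 in the WT samples. The gap between the genotypes was narrow in each of these genes: for all 10, the nearest values differed by a ratio of 1.04 or less.

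**Figure D4:**
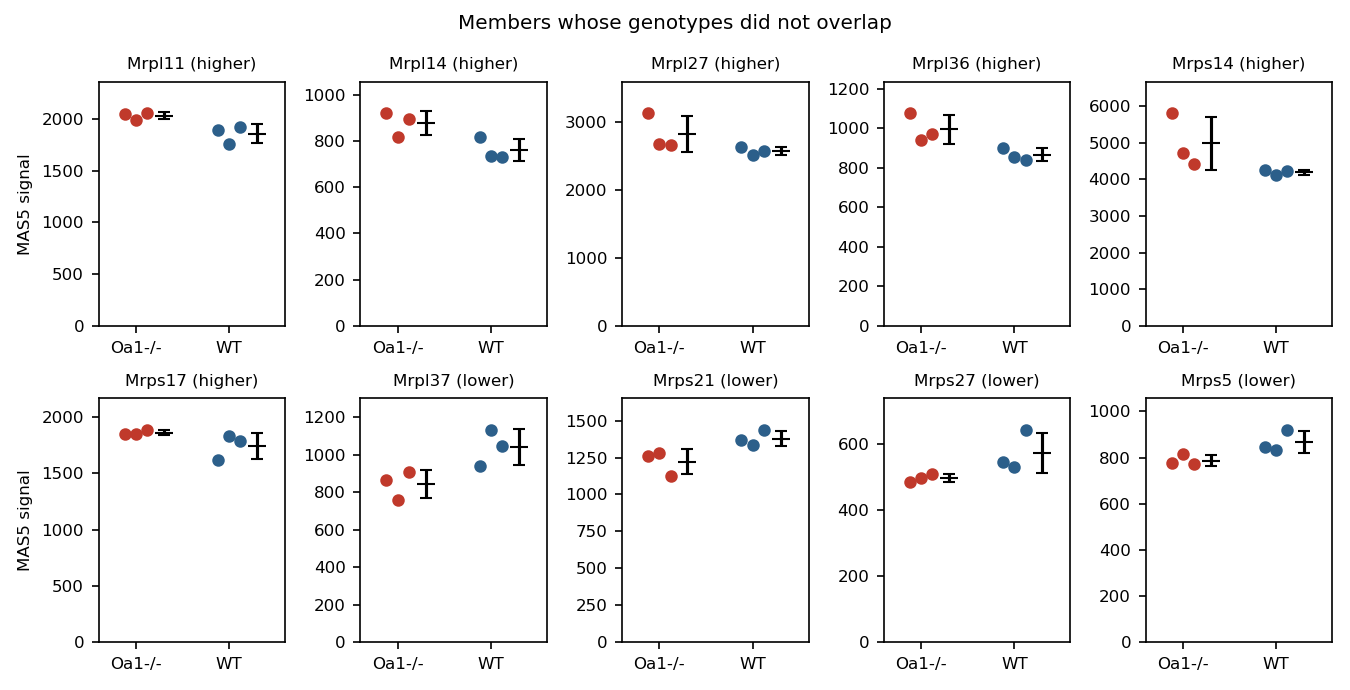
MAS5 signal (vertical axis, linear, from 0) in the 3 Oa1-/- samples (red) and the 3 WT samples (blue) for the 10 members whose genotypes did not overlap. Bars are the mean and SD. Mrpl11, Mrpl14, Mrpl27, Mrpl36, Mrps14 and Mrps17 are higher in Oa1-/-, and Mrpl37, Mrps21, Mrps27 and Mrps5 are lower.

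Split by descent, the upward lean was most uniform among large subunit proteins with a bacterial counterpart. Members were placed by structure, and a protein counted as bacterial in descent where it holds the place of a bacterial protein, so Mrps18a and Mrps18b counted among the others. Of the large subunit proteins of bacterial descent, 28 of 29 had a log2 change above 0, with a median of 0.084, and Mrpl33 was the exception. Without Oa1-/- replicate 1, 18 of 29 were above 0 and the median was 0.050. Of the other large subunit proteins, 13 of 20 were above 0 with a median of 0.047. In the small subunit the order ran the other way, with 8 of 16 proteins of bacterial descent above 0 (median -0.00809) and 9 of 10 others above 0 (median 0.072). The shares stand beside 50.8% of all genes tested, and without Oa1-/- replicate 1 the last 3 medians were -0.021, -0.089 and 0.011.

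The members with an unusual place in the structure did not move together. Mrps18a, the paralogue that sits in the large subunit, had signals of 2039.8, 2037 and 2028 in the Oa1-/- samples, against 2041, 1785 and 1761 in the WT samples. The Oa1-/- values were nearly equal and WT replicate 1 matched them, so the genotypes overlapped (log2 change 0.13; limma, unadjusted p = 0.166). Its small subunit paralogues Mrps18b and Mrps18c were at 0.0006 and 0.015. Mrps30, a large subunit protein despite its symbol, had signals of 1096, 1069 and 974 in the Oa1-/- samples, against 1094, 1081 and 1056 in the WT samples (log2 change -0.043). Mrps36, the 2-oxoglutarate dehydrogenase component, was at 0.040, with 1369 ± 80.3 in Oa1-/- and 1336 ± 159.9 in WT samples (SD, n = 3 each).

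A second reading of the members came from their other probe sets. Of the 42 members with several probe sets, 36 had more than 1 past the filter, and in 15 of these every probe set had a log2 change of the same sign, while 21 held both signs. The 66 other probe sets past the filter had a median of 0.084, with 47 above 0. Of all genes tested, each on its brightest probe set, 50.8% were above 0. At an unadjusted limma p below 0.05, 3 of them were higher (background 1.64% of probe sets) and 1 was lower (background 2.46%). These 4 were singled out after their values were seen. None of them passed adjustment.

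Mrps5, a small subunit protein of bacterial descent engineered mutations of which in mice lower the accuracy of mitochondrial translation, had probe sets on both sides of 0. Its brightest probe set, 1448488_at, had signals of 774, 813 and 770.1 in the Oa1-/- samples, against 846, 830.4 and 919.6 in the WT samples (log2 change -0.13; limma, unadjusted p = 0.186). The dimmer 1435563_at had 454, 390 and 517 in the Oa1-/- samples, against 285, 305 and 276 in the WT samples (log2 change 0.62, SE 0.14; limma, unadjusted p = 0.00211). Neither probe set overlapped between the genotypes, and they lay in opposite directions. A further probe set, 1453954_a_at, went with the dimmer one, with 449.5, 403 and 479 in the Oa1-/- samples, against 360.1, 321 and 296 in the WT samples (log2 change 0.43; limma, unadjusted p = 0.0113). The transcripts that each probe set covers were not examined.

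Mrpl28, of bacterial descent, was at 0.051 on its brightest probe set, with 1971 ± 252 in Oa1-/- and 1895 ± 145 in WT samples (SD, n = 3 each). Its dimmest probe set, 1456313_x_at, had signals of 767, 765 and 853 in the Oa1-/- samples, against 569, 653 and 575 in the WT samples (log2 change 0.40; limma, unadjusted p = 0.00522). The lower probe set was 1458999_at of Mrps10, with 39.1, 15.1 and 103 in the Oa1-/- samples, against 107, 119.9 and 108 in the WT samples (log2 change -1.11; limma, unadjusted p = 0.0336), values that reach the level of the bacterial controls. Mrpl15, of bacterial descent, had 7 of 8 probe sets past the filter. Its brightest was at 0.00112 with overlapping genotypes, and the next 4 in brightness were above 0, at 0.20, 0.13, 0.19 and 0.080. The dimmest past the filter, 1439988_at and 1451623_at, were at -0.44 and 0.31.

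The promoters of the members were examined because the genes lie apart in the genome, on 17 chromosomes, and yet their products are needed together. RefSeq promoters (build GRCm38.p6, 250 bases before to 50 bases after the start of the gene) matched 67 of the 76 members. They were searched on both strands for the core letters of 3 motifs of factors known for nuclear genes of mitochondria: CCGGAAG for the ETS family, to which GABP (NRF2) belongs, GCGCATG for NRF1 and ATGGCGG for YY1. The ETS core was in 25 of 67 promoters (37.3%), the YY1 core in 12 (17.9%) and the NRF1 core in 8 (11.9%). The shares among 10379 tested genes with a promoter were 19.0%, 8.91% and 7.64%. At least 1 of the 3 cores was in 53.7% of the members' promoters, beside 31.0% of those of tested genes. The median log2 change was 0.094 for the 25 members with the ETS core and 0.054 for the 42 without it. For the other cores the order was the reverse, with 0.053 for the 8 members with the NRF1 core and 0.066 for the 59 without it, and 0.039 for the 12 with the YY1 core and 0.076 for the 55 without it. A match is a description of letters and no evidence of binding in these eyes. The YY1 core begins with ATG, the letters of a start codon, and the searched stretch reaches 50 bases past the start of the gene. Matches that open a reading frame were not set apart.

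The promoters of 5 members are shown 5′ to 3′ on the strand of the gene, with the matched cores in capitals and positions counted from the start of the gene. Mrpl22 (chr11:58171414-58171713, plus strand) was the member with all 3 cores, with the ETS core at -53, the NRF1 core at -33 and the YY1 core at 22. Mrps18a (chr17:46110754-46111053, plus strand) has the ETS core at -26 and the YY1 core at 14. Mrps11 (chr7:78782881-78783180, plus strand) has the YY1 core on the opposite strand at -109, where it reads as CCGCCAT, and lies back to back with Mrpl46. Mrpl37 (chr4:107066817-107067116, minus strand) and Mrps5 (chr2:127587176-127587475, plus strand), the members with the lowest estimate and with opposing probe sets, have the YY1 core at 29 and 2.
Mrpl22: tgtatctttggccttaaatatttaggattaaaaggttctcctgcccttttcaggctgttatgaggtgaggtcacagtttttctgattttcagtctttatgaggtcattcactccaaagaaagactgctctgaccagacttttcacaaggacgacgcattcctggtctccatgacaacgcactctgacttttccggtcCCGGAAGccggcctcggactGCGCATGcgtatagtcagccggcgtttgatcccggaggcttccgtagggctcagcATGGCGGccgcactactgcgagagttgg
Mrps18a: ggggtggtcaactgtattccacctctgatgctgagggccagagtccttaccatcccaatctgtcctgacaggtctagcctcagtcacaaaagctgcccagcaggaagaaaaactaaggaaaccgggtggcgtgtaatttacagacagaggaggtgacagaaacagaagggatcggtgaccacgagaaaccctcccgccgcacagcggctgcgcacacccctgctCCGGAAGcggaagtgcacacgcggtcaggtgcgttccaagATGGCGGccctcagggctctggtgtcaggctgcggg
Mrps11: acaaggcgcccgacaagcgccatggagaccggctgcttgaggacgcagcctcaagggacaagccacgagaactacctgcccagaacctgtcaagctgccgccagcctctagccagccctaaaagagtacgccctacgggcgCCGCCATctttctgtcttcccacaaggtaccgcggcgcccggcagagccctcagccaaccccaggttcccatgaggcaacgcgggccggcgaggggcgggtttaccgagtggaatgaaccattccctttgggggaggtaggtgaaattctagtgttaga
Mrpl37: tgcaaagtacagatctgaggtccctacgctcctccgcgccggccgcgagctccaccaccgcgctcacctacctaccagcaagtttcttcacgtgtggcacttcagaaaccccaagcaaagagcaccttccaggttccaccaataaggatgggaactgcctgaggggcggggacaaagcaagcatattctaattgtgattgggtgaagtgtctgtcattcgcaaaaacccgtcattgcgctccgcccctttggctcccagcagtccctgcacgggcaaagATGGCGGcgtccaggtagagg
Mrps5: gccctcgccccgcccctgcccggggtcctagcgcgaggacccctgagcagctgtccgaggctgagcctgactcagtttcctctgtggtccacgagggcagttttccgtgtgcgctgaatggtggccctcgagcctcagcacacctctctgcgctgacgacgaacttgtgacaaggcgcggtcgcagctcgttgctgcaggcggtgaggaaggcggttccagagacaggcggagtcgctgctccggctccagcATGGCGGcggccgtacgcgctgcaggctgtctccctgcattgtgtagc
Mrpl22 itself, with all 3 cores, had signals of 2443, 2219 and 2122 in the Oa1-/- samples, against 2146, 2089.5 and 2315 in the WT samples, with overlapping genotypes and a log2 change of 0.049.

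Many members start close to a neighbour that is read in the opposite direction. A divergent protein-coding neighbour with its start within 1000 bases was found for 23 of 67 members (34.3%), beside 12.4% of 10090 tested genes. The members that face each other are Mrpl46 of the large subunit and Mrps11 of the small subunit, whose starts are 42 bases apart. Mrpl46 had 1148 ± 142 in Oa1-/- and 1083 ± 15.3 in WT samples, and Mrps11 had 799 ± 135 in Oa1-/- and 766 ± 51.7 in WT samples (SD, n = 3 each), log2 changes of 0.076 and 0.048. Several partners also serve mitochondria: Mrpl43 lies beside Twnk, the helicase of the mitochondrial genome, Mrps12 beside Sars2, a mitochondrial seryl-tRNA synthetase, and Mrpl47 beside Ndufb5 of respiratory complex I. Of the 22 partners tested, 10 had a log2 change above 0 (background 50.8%), with a median of -0.013. These partners include the members Mrpl46 and Mrps11, each counted as the partner of the other and both above 0. At an unadjusted limma p below 0.05 there was 1 of these 22 (background 3.66% of genes in either direction), Psma2, a proteasome subunit beside Mrpl32. Psma2 had 5493 ± 415 in Oa1-/- and 4752 ± 52.7 in WT samples (SD, n = 3 each; log2 change 0.21; limma, unadjusted p = 0.0273) and did not pass adjustment.

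The lists of the rest of the mitochondrial translation machinery had medians slightly below 0. Of 13 translation factors, 5 had a log2 change above 0 (median -0.016), and of 28 genes for ribosome assembly and ribosomal RNA modification, 11 did (median -0.0086). The counts were 7 of 18 for mitochondrial aminoacyl-tRNA synthetases and the glutamyl-tRNA amidotransferase (median -0.012), and 11 of 22 for transcription of the mitochondrial genome and RNA stability (median -0.014). Of the 4 mitoribosome proteins with other symbols, 1 was above 0 (median -0.046). The background was 50.8%, and 0 genes of these lists passed an unadjusted limma p below 0.05 in either direction.

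The named genes of these lists lay on both sides of 0. Tsfm, the mitochondrial elongation factor Ts, had signals of 735, 522 and 717 in the Oa1-/- samples, against 584, 513 and 475 in the WT samples (log2 change 0.31; limma, unadjusted p = 0.0807). Mtfmt, which formylates the initiator tRNA, had signals of 399, 440.1 and 405 in the Oa1-/- samples, against 489, 488 and 451 in the WT samples (log2 change -0.19). Dhx30, an RNA helicase needed for assembly of the large subunit, had signals of 2617, 2717 and 2718 in the Oa1-/- samples, against 3014, 2817 and 3108 in the WT samples (log2 change -0.15; limma, unadjusted p = 0.0798). Mtfmt and Dhx30 did not overlap between the genotypes, and Tsfm did. Of all genes tested, 5.29% did not overlap and were lower in Oa1-/- samples. Gatb, a subunit of the amidotransferase, had 173 ± 10.8 in Oa1-/- and 224 ± 32.7 in WT samples (log2 change -0.33), and its partner Qrsl1 762 ± 40.7 in Oa1-/- and 867 ± 102 in WT samples (log2 change -0.18; SD, n = 3 each). Nsun4, which modifies ribosomal RNA and joins the subunits, was at -0.22. Chchd1 and Ptcd3, subunits of the small ribosomal subunit, were at -0.064 and -0.058.

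Genes that act upstream lay on both sides of 0, and more of the listed regulators were below 0 than above it. The genes named here were again those with the smallest unadjusted p in their lists. Tfb2m, needed to start mitochondrial transcription, had signals of 899.6, 729 and 693 in the Oa1-/- samples, against 853, 910.4 and 1001 in the WT samples (log2 change -0.25; limma, unadjusted p = 0.0761). Tfam, which packages the mitochondrial genome, had signals of 2251, 2002 and 1978 in the Oa1-/- samples, against 1928, 1830.4 and 1835 in the WT samples (log2 change 0.15). Its genotypes did not overlap, as was so for 5.47% of all genes tested in the higher direction. Of 11 regulators of nuclear genes for mitochondria, 4 were above 0 (background 50.8%) and 7 below, with a median of -0.11. That median was -0.094 without Oa1-/- replicate 1 and -0.12 without WT replicate 3, and 0 of the 11 had an unadjusted limma p below 0.05. Myc, a transcription factor that drives ribosome production, was at -0.26 and Sirt3, a mitochondrial deacetylase, was at -0.26.

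Lists of abundant energy and ribosome genes also leaned upwards, and their medians were also lower without Oa1-/- replicate 1. Of 31 oxidative phosphorylation subunits, 26 had a log2 change above 0 (background 50.8%, median 0.057), and the median was 0.016 without that array. Of 17 cytosolic ribosomal proteins, 14 were above 0 (median 0.044), with 0.0033 without that array. Of 16 genes of the citrate cycle, 10 were above 0 (median 0.022), with -0.029 without that array. At an unadjusted limma p below 0.05, 1 of 31 oxidative phosphorylation genes was higher (background 1.68%), Ndufa5 of complex I, with signals of 2875, 2627 and 2532 in the Oa1-/- samples, against 2368, 2284 and 2312 in the WT samples (log2 change 0.20; limma, unadjusted p = 0.0323). In the citrate cycle list it was 1 of 16, Sdhd, the membrane anchor of succinate dehydrogenase, with 2287, 2151 and 2256 in the Oa1-/- samples, against 1942, 1852 and 1742 in the WT samples (log2 change 0.27; limma, unadjusted p = 0.00860). Both genes had no overlap between the genotypes, as did 5.47% of all genes tested in the higher direction, and neither passed adjustment.

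**Figure D5:**
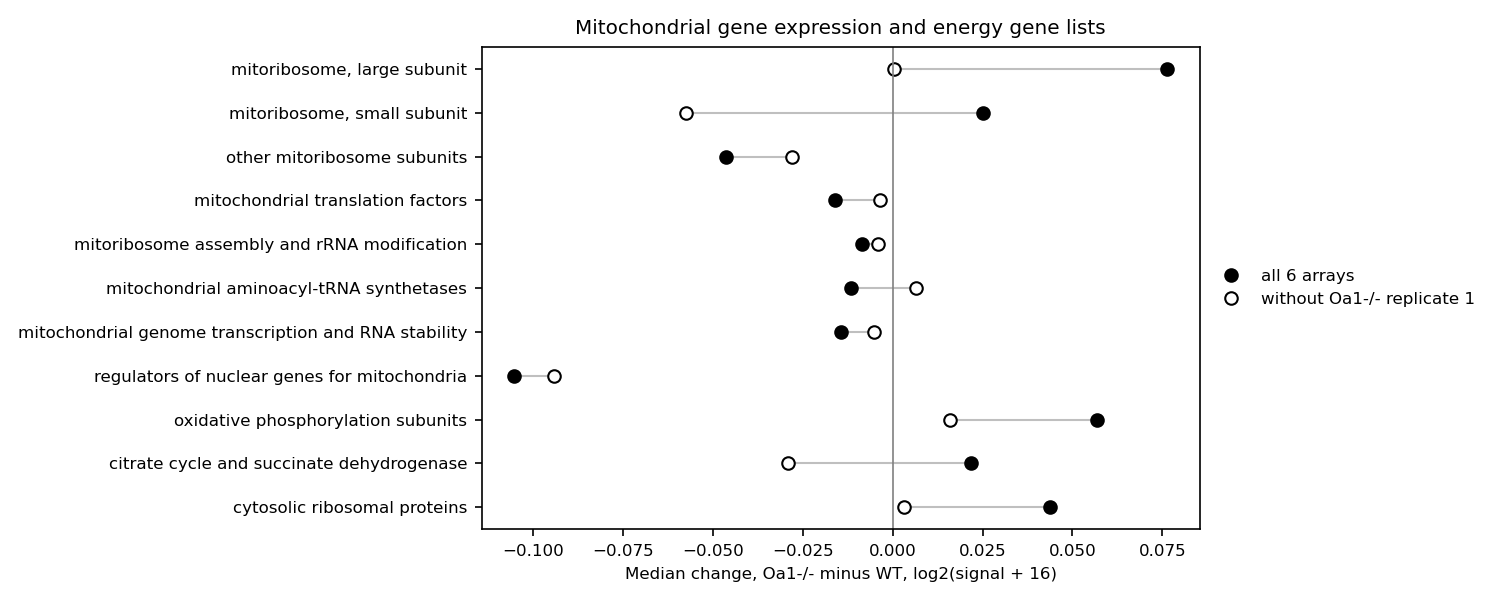
Median log2 change, Oa1-/- minus WT, in log2(signal + 16) units (horizontal axis), of the mitochondrial ribosomal proteins and of lists of related genes (vertical axis). Filled circles are from all 6 arrays and open circles from the 5 arrays without Oa1-/- replicate 1. The medians of both ribosomal subunits, the oxidative phosphorylation, the citrate cycle and the cytosolic ribosomal protein lists are lower without that array.

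Several lists of cell type markers also leaned or varied between arrays. The 14 skeletal muscle markers had median deviations of 0.62, -0.49 and 0.10 on Oa1-/- replicates 1, 2 and 3, and of -0.87, 0.11 and 0.57 on WT replicates 1, 2 and 3. Of these markers, 12 were above 0 (background 50.8%, median 0.12), and 4 were above 0 without Oa1-/- replicate 1 (median -0.12), an array that also held the members' lean. Their summed signals ran from 9525 to 22396 in Oa1-/- and from 7466 to 21655 in WT samples. All 10 lens markers past the filter were above 0 (median 0.094, or 0.056 without Oa1-/- replicate 1). Their median deviations were 0.18, 0.043 and -0.021 on Oa1-/- replicates 1, 2 and 3. On WT replicates 1, 2 and 3 they were -0.51, 0.14 and 0.13, so WT replicate 1 alone was far below the Oa1-/- arrays. Of 9 endothelial markers, 8 were above 0 (median 0.077). That median was 0.16 without Oa1-/- replicate 1 and 0.0031 without WT replicate 3, where the median deviation was -0.31. Of the 4 erythroid markers past the filter 0 were above 0 (median -0.25), and their median deviation on WT replicate 1 was 0.92. Of 11 retinal ganglion cell markers, 8 were above 0 (median 0.095), and 4 of the 11 were higher at an unadjusted limma p below 0.05 (background 1.68%). Their summed signals were 47832 to 53807 in Oa1-/- and 43558 to 46938 in WT samples. Of 13 periocular mesenchyme markers, 11 were below 0 (median -0.17), and 4 of the 13 were lower at an unadjusted limma p below 0.05 (background 1.98%). Their summed signals were 87291 to 93353 in Oa1-/- and 83084 to 102334 in WT samples. The other lists were more evenly split around 0. Above 0 were 5 of 9 retinal progenitor markers (median 0.014), 6 of 10 pigment epithelium markers past the filter (median 0.039) and 4 of 9 macrophage markers (median -0.058). At an unadjusted limma p below 0.05, 1 of the 9 retinal progenitor markers was higher (background 1.68%). None of these markers passed adjustment. The part of any change in cell makeup in the members' values was not tested.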

How the data were processed

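The authors deposited linear signal intensities for every probe set of each array, which MAS5 had produced, per the submitters' processing notes. Its version is not given in those notes. In the deposited values the trimmed mean is 500.002 on all arrays, so they had been scaled alike. The median signal still differed between arrays. It was 93.6, 117.7 and 128.7 on Oa1-/- replicates 1, 2 and 3, and 117.0, 121.0 and 108.2 on WT replicates 1, 2 and 3. The array with the lowest median signal, Oa1-/- replicate 1, was also the one with the members' lean, and the part of this difference in their values was not tested. Arrays were grouped by genotype from the labels. Intensities were analysed as log2(signal + 16), without another normalization step. The controls, and probe sets with a mean at or below the 40th percentile, were left out, and 27029 probe sets entered limma 3.58.1 in R 4.3.3 (lmFit and trended eBayes), Oa1-/- minus WT, with Benjamini-Hochberg adjustment over them all and a threshold of 0.05. The fit was tested on simulated data. Precision is limited by 3 arrays per genotype. The members and lists were chosen with earlier results of these data known. Named genes were, per subunit by symbol, up to 6 higher and 6 lower members with the smallest unadjusted p. Members whose probe sets differ in sign by at least 0.3 each, and members of unusual place in the structure, were also named. From each related list, up to 2 genes with the smallest unadjusted p were named, so these genes are not typical of their lists. Promoters came from RefSeq. Same-numbered samples correlated at -0.29, 0.16 and -0.23 in their deviations, so replicate numbers were not taken to pair samples. Other pseudocounts, filters, normalizations, array weights, probe set choices and left-out arrays were tried. Detection calls were not used here.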

Additional observations from a re-analysis of the deposited data

How the results depend on the processing

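Under 19 alternatives, 0 members passed an adjusted p of 0.05 wherever a test was run, and the difference between the large and small subunit medians stayed above 0 (0.035 to 0.072). With 1 array left out in turn, the members' median ran from -0.0082 to 0.089, the large subunit median from 0.000376 to 0.12, the small subunit median from -0.058 to 0.075, and the members above 0 from 36 to 61. The lowest of each came without Oa1-/- replicate 1. Members at an unadjusted p below 0.05 ran from 0 to 5 with 1 array left out (5 without Oa1-/- replicate 3, 3 without WT replicate 1, 2 without Oa1-/- replicate 1, 0 without Oa1-/- replicate 2 or WT replicate 2), against 1 with all arrays, and numbered 8 with array weights, 3 with the mean of all probe sets of a gene, 2 with quantile normalization and 0 with median centring or with probe sets ending in _at or _a_at only. These counts stand without the share of all genes under the same alternative, so they cannot be read as particular to the members. In the fit of all arrays that share was 3.66% of genes in either direction. With array weights the medians were 0.019 for all members, 0.032 for the large and -0.017 for the small subunit. With the replicate number as a block in the fit, which the numbers do not warrant as a pairing, the medians were unchanged at 0.064, 0.076 and 0.025, and 0 members had an unadjusted p below 0.05. Gpr143 passed the adjusted threshold with median centring (log2 change -2.79, limma adjusted p = 0.00118) and ran from -3.09 to -2.43 with 1 array left out. Of 519 named member values under alternatives, 485 kept their sign and 34 changed it, and the changed ones belong to members whose estimate is near 0 or whose probe sets disagree. With the mean of all probe sets, Mrpl39 was at 0.00527, Mrpl49 at 0.046, Mrpl44 at 0.022 and Mrps5 at 0.17. With _at and _a_at probe sets only, Mrps6 was at 0.097. With quantile normalization Mrpl15 was at -0.0062, and with median centring Mrpl44 was at 0.024. With array weights, Mrpl49 was at 0.00283, Mrpl15 at -0.019, Mrps18b at -0.086 and Mrps18c at -0.017. Without Oa1-/- replicate 1 and WT replicate 3 together, an alternative chosen after seeing the data, the members' median was 0.014, and Mrpl33 was at 0.019, Mrpl39 at 0.00659, Mrpl44 at 0.011, Mrpl15 at -0.043, Mrps18b at -0.00632 and Mrps18c at -0.076. With 1 array left out, Mrpl15 ran from -0.090 to 0.12, Mrpl33 from -0.16 to 0.029, Mrpl39 from -0.076 to 0.025, Mrpl44 from -0.023 to 0.019, Mrpl49 from -0.18 to 0.13, Mrps18b from -0.074 to 0.082, Mrps18c from -0.086 to 0.067, Mrps30 from -0.077 to 0.0065 and Mrps36 from -0.020 to 0.13. The cause of these changes was not tested. The members' signals are far above the bacterial controls, and 3 arrays per genotype limit the precision.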

Other observations

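The array also holds a message that the mitochondrial ribosome itself translates, chosen after its values were seen. The probe set of ND5, a complex I subunit encoded in the mitochondrial genome, had signals of 9633, 13019 and 9837 in the Oa1-/- samples, against 12343, 13986 and 15537 in the WT samples. Oa1-/- replicate 2 overlapped with WT replicate 1, and the other Oa1-/- values were below every WT value (log2 change -0.37, SE 0.13; limma, unadjusted p = 0.0215, adjusted p = 0.985). The lean was thus opposite in sign to that of the members' median of 0.064.

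The probe sets that the annotation gives 2 symbols were left out of the members. Gm6238 and Mrpl30 share 2 probe sets, of which 1 lay between 1.64 and 5.77 on all arrays, below the highest bacterial control. The other had signals of 5203, 4565 and 4368 in the Oa1-/- samples, against 4700.2, 4459 and 4843 in the WT samples (log2 change 0.010). The one shared by Ccdc142 and Mrpl53 had signals of 2289, 2031 and 2027 in the Oa1-/- samples, against 1994, 1921 and 2052 in the WT samples (log2 change 0.086). The one shared by Nme3 and Mrps34 had signals of 588, 629 and 618 in the Oa1-/- samples, against 563, 462 and 618 in the WT samples (log2 change 0.16). In these 3 probe sets the genotypes overlapped.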
